A study of Mus musculus with 8 samples.

Results

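Cytochrome P450 (P450) genes were examined in livers of METTL3-HKD and METTL3-Flox mice after hepatic I/R injury. The members were the protein-coding genes whose symbol is Cyp followed by a family number and a subfamily letter, without the bile acid synthesis genes Cyp7a1, Cyp7b1, Cyp8b1 and Cyp27a1. Cyp51 carries no subfamily letter and was not a member. The rule gave 95 of the 54532 listed genes. The METTL3-HKD group held 4 livers and the METTL3-Flox group held 4 livers, and all 8 mice underwent 1 h of ischemia and 6 h of reperfusion. Per the study's methods, METTL3-HKD mice are METTL3 flox/- with an albumin-driven iCre, which acts in hepatocytes, and METTL3-Flox mice are METTL3 flox/flox littermates that carry loxP sites around exon 4 without Cre. The paper calls the METTL3-HKD mice heterozygous, with METTL3 lowered in liver, and used them because hepatocyte knockouts died early. Cre is not expected in the other liver cell types, and the labels give neither the age nor the sex of the mice. No liver without I/R injury was analysed here, so the comparison is between genotypes after reperfusion.

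P450 enzymes are heme proteins that insert an oxygen atom into drugs, toxins, steroids, fatty acids and vitamins. Most hepatic P450 enzymes sit in the endoplasmic reticulum and receive electrons from the reductase POR, whereas mitochondrial forms are served by ferredoxin and its reductase FDXR. Families 1 to 3 mainly handle foreign compounds, family 4 hydroxylates fatty acids and eicosanoids, and family 26 clears retinoic acid. Many of these genes are induced through nuclear receptors, are expressed most strongly around the central vein, and differ in level between male and female mouse liver.

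The depth on genes was 15861245 to 18434488 reads per liver. METTL3, the enzyme that methylates adenosine in mRNA, gave 1.56, 1.39, 1.17 and 1.20 FPKM for Mettl3 across METTL3-HKD livers 1 to 4, against 1.84, 1.16, 1.45 and 1.54 FPKM across METTL3-Flox livers 1 to 4. The groups overlapped (log2 fold change -0.16, SE 0.17, adjusted p = 0.556 in limma), and the sign turned when scaled to reads on genes (0.05). The value is over the whole gene in whole liver, so it includes reads outside the deleted exon and reads from cells without Cre. The METTL3-HKD mice are also heterozygous per the paper, so the design is a partial reduction. The paper reports that it checked METTL3 expression in major organs of METTL3-HKD mice and found the ablation specific to liver. All 8 livers expressed the Y-linked gene Ddx3y (12.1 to 17.8 FPKM), and Xist stayed at or below 0.009 FPKM. The 8 neutrophil markers of a fixed list summed to 334 to 1631 FPKM across METTL3-HKD livers, against 13.0 to 45.0 FPKM across METTL3-Flox livers. Of these markers, 8 of 8 were upregulated, beside 9.05% of all genes tested. The 9 hepatocyte markers found in the table summed to 33029, 36067, 44030 and 46488 FPKM across METTL3-HKD livers 1 to 4, against 42830 to 50642 FPKM across METTL3-Flox livers, with a median log2 fold change of -0.25 and none past the test. When scaled to reads on genes this median was -0.03, beside 0.20 for all genes. In whole liver, fewer cells of a type and less RNA per cell cannot be told apart.

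P450 mRNA was abundant in every liver. Reads on P450 members made up 1.36%, 1.63%, 1.59% and 1.67% of the reads on genes in METTL3-HKD livers 1 to 4 and 1.44%, 1.56%, 1.46% and 1.48% in METTL3-Flox livers 1 to 4, so the groups overlapped. FPKM divides the reads of a gene by its length and by a library size, which allows levels of different genes to be compared. On this scale the members summed to 4822, 5873, 6177 and 6451 FPKM across METTL3-HKD livers, against 6851, 6802, 6263 and 6219 FPKM across METTL3-Flox livers. METTL3-HKD liver 1 had the lowest sum, and METTL3-HKD liver 4 lay within the METTL3-Flox range. Of the 95 members, 17 had a mean of at least 100 FPKM, 16 lay from 10 to under 100 FPKM, 21 from 1 to under 10 FPKM and 13 from 0.1 to under 1 FPKM. The other 28 members were under the minimum mean of 0.1 FPKM and were not tested, and 12 of them were listed at 0 in all 8 livers.

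**Figure D1:**
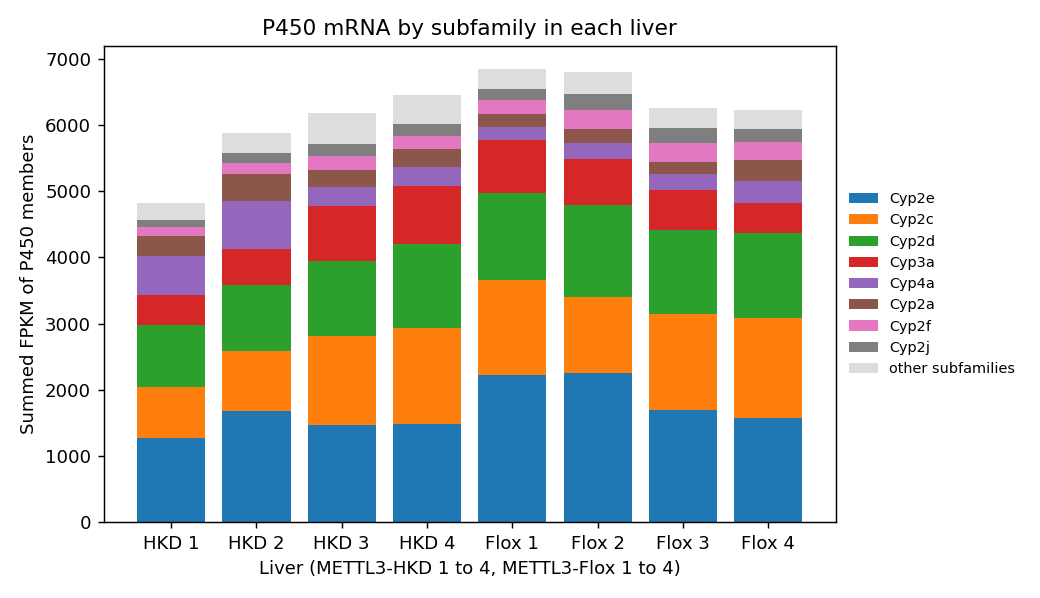
Stacked bars show the summed FPKM of P450 members by subfamily in each of the 8 livers, with the 8 most abundant subfamilies in colour and all others in grey. Cyp2e is the largest block in every liver, the sum runs from 4822 FPKM in METTL3-HKD liver 1 to 6851 FPKM in METTL3-Flox liver 1, and the Cyp4a block is tallest in METTL3-HKD livers 1 and 2.

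Cyp2e1, the pericentral enzyme that oxidises ethanol and acetaminophen, was the most abundant member. It reached 1271, 1681, 1476 and 1477 FPKM across METTL3-HKD livers 1 to 4, against 2226, 2253, 1690 and 1571 FPKM across METTL3-Flox livers 1 to 4. METTL3-Flox livers 1 and 2 stood highest and METTL3-Flox liver 4 fell below METTL3-HKD liver 2, so the groups overlapped, and the difference did not pass the test (log2 fold change -0.38, 95% confidence interval -0.80 to 0.04, adjusted p = 0.196). Cyp2e1 alone supplied 22.9% to 28.6% of the P450 FPKM across METTL3-HKD livers, against 25.3% to 33.1% in METTL3-Flox livers. The next most abundant members were Cyp2c29, Cyp2d26, Cyp3a11, Cyp2d10 and Cyp2d9, each with a mean of 326 to 467 FPKM over the 8 livers.

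Of the 67 tested members, 6 were upregulated and 6 were downregulated in METTL3-HKD mice at an adjusted p under 0.05 (limma, Benjamini-Hochberg over 16645 genes). The members past the test were 17.9% of those tested, beside 15.7% of all genes tested. The share was 8.96% upward, beside 9.05% of all genes, and 8.96% downward, beside 6.63% of all genes. These shares lay near those of all genes and are no result about P450 genes as a whole. The shares of all genes are also the background for the counts by family, subfamily and list below. With a log2 fold change of at least 1 as well, the threshold used by the study, 6 members were higher (8.96%, beside 4.7% of all genes) and 3 were lower (4.48%, beside 1.52%). All METTL3-HKD livers lay above all METTL3-Flox livers in 5 members (7.46%, beside 12.7% of all genes) and below them in 7 members (10.4%, beside 9.95%). The log2 fold change was positive in 29 members (43.3%, beside 49.7% of all genes), with a median of -0.12 over the tested members and -0.00 over all genes tested.

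The counts moved with single livers and with the scaling. The number upregulated was 3 without METTL3-HKD liver 1 or without METTL3-Flox liver 3. The number downregulated was 2 without METTL3-HKD liver 1, 3 without METTL3-HKD liver 2, 10 without METTL3-HKD liver 3, 1 without METTL3-Flox liver 3 and 2 without METTL3-Flox liver 4. The deposited FPKM had already been scaled between libraries. When values were instead scaled to the total of reads on genes in that library, the medians shifted to 0.20 for all genes and 0.08 for the members, and 8 members were higher (11.9%, beside 13.8% of all genes) and 3 were lower (4.48%, beside 2.24%). The members' median thus lay below that of all genes under both scalings.

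**Figure D2:**
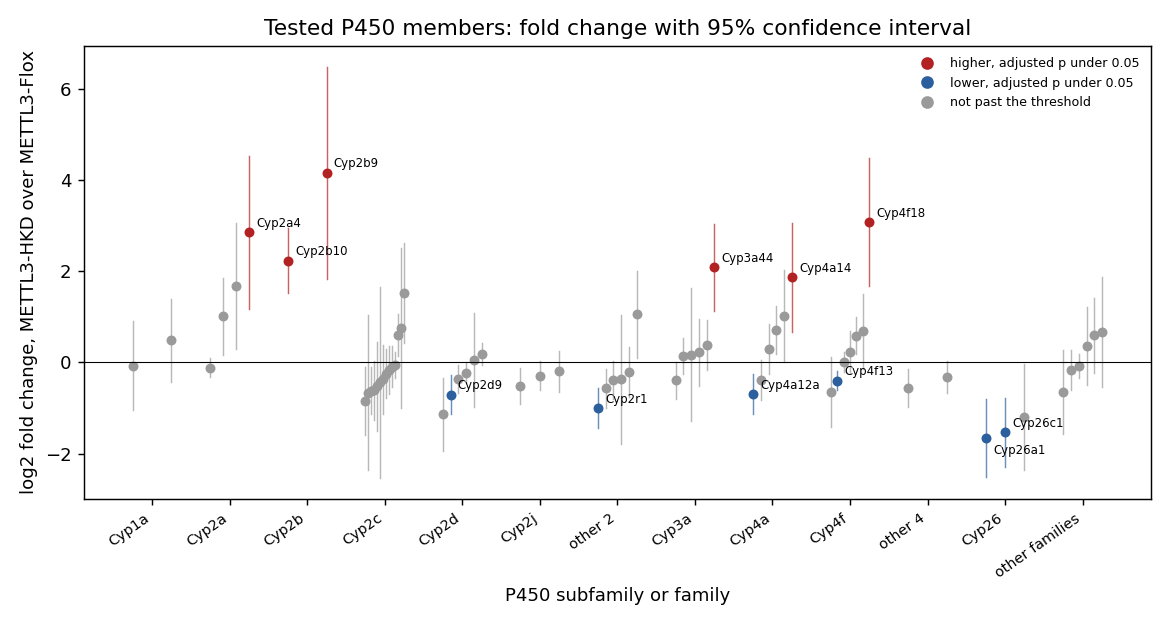
Each point is the log2 fold change (METTL3-HKD over METTL3-Flox) of 1 of the 67 tested P450 members with its 95% confidence interval, grouped by subfamily or family, red for the 6 upregulated, blue for the 6 downregulated and grey for the other 55. Called members are spread over the Cyp2a, Cyp2b, Cyp2d, Cyp2r, Cyp3a, Cyp4a, Cyp4f and Cyp26 groups, and none of the 14 Cyp2c points is coloured.

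Family 2 held 49 members, of which 35 were tested, 3 were upregulated and 2 were downregulated, with a median log2 fold change of -0.22. These counts lay near the shares of all genes (9.05% upregulated and 6.63% downregulated) and are no result about the family. The summed level of the family was 3562, 4376, 4674 and 4912 FPKM across METTL3-HKD livers 1 to 4, against 5587, 5556, 5148 and 5177 FPKM across METTL3-Flox livers 1 to 4, without overlap as deposited. The deposited library sizes were 1.01 to 1.17 times the reads on genes in METTL3-HKD livers, against 0.84 to 1.01 times in METTL3-Flox livers. The separation of the sums therefore depends on the scaling. In the Cyp2b subfamily both tested members were upregulated. Cyp2b10 (ENSMUSG00000030483, chr7:25897620-25926624, plus strand, GRCm38), the classical target of the receptor CAR, reached 41.8, 58.6, 60.3 and 61.4 FPKM across METTL3-HKD livers 1 to 4, against 24.0, 7.94, 9.06 and 10.6 FPKM across METTL3-Flox livers 1 to 4. All METTL3-HKD livers were above all METTL3-Flox livers, and METTL3-Flox liver 1 was the highest of its group. The mean was 55.5 ± 9.22 FPKM in METTL3-HKD mice, against 12.9 ± 7.46 FPKM in METTL3-Flox mice (SD, n = 4 each). The difference was 4.69-fold on the log2(FPKM + 0.1) scale (log2 fold change 2.23, SE 0.32, adjusted p = 0.00504). Cyp2b10 passed the test under all 17 alternatives. The gene encoding CAR, Nr1i3, had a mean of 4.13 ± 1.09 FPKM across METTL3-HKD livers, against 4.91 ± 0.913 FPKM in METTL3-Flox livers (SD, n = 4), which did not pass the test (log2 fold change -0.26, adjusted p = 0.407 in limma).

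Cyp2b9, a member of the same cluster that is typical of female mouse liver, was read only in METTL3-HKD livers. It gave 132, 422, 4 and 34 reads (3.50, 12.2, 0.118 and 0.975 FPKM) across METTL3-HKD livers 1 to 4, against 0 reads in each METTL3-Flox liver. The METTL3-HKD values spread widely, with liver 2 highest and liver 3 near the level of a few reads. Taking 3 reads per library as the most that a count of 0 allows in METTL3-Flox livers, the METTL3-HKD mean was at least 40.3-fold higher, with counting error only. This bound rests largely on METTL3-HKD liver 2, without which it was 14.7-fold. The difference passed the test (log2 fold change 4.16, SE 1.03, adjusted p = 0.0291 in limma), and the fitted size depends on the pseudocount. The call was lost without METTL3-HKD liver 1 and without each of the METTL3-Flox livers (adjusted p = 0.0541 to 0.0803), with a pseudocount of 1 FPKM (0.0977), with no minimum level (0.0508) and with voom (0.127 and 0.144). The other Cyp2b members, Cyp2b13, Cyp2b19 and Cyp2b23, stayed under the minimum level, with at most 7 reads in any liver.

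All 4 Cyp2a members were tested, and Cyp2a4 was upregulated. Cyp2a4 encodes a steroid hydroxylase and is nearly a copy of Cyp2a5, which encodes the coumarin hydroxylase. Cyp2a4 reached 1.26, 3.74, 0.287 and 2.94 FPKM across METTL3-HKD livers 1 to 4, against 0, 0.0712, 0.189 and 0.357 FPKM across METTL3-Flox livers 1 to 4. METTL3-HKD liver 3 fell within the METTL3-Flox range, so the groups overlapped. The log2 fold change was 2.85 (SE 0.74, adjusted p = 0.034 in limma). The call was lost without METTL3-HKD liver 1, 2 or 4 and without METTL3-Flox liver 1, 2 or 3 (adjusted p = 0.0692 to 0.0811), with a pseudocount of 1 FPKM (0.053), with no minimum level (0.0595) and with voom (0.065 and 0.0775). Cyp2a5 was far more abundant, at 190, 269, 123 and 136 FPKM across METTL3-HKD livers, against 57.0, 90.5, 59.0 and 170 FPKM across METTL3-Flox livers, and it did not pass the test (log2 fold change 1.01, adjusted p = 0.0976 in limma). METTL3-Flox liver 4 lay among the METTL3-HKD values of Cyp2a5, and without it the test was passed (adjusted p = 0.0347).

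The coding sequences of Cyp2a4 and Cyp2a5 differ at 23 of 1485 bases (98.5% identity), and 58.1% of the 31-base words of Cyp2a4 transcripts occur in other genes. How reads that fit both genes were assigned is not given in the sources used here. Cyp2a4 as a percent of Cyp2a5 FPKM was 0.662, 1.39, 0.234 and 2.17 in METTL3-HKD livers 1 to 4 and 0, 0.0787, 0.321 and 0.210 in METTL3-Flox livers 1 to 4. The ratio overlapped between the groups at METTL3-HKD liver 3, and an exact permutation test of 4 against 4 livers gave p = 0.0571, two-sided, where the smallest p possible is 0.0286. The stretch printed here is shown because it holds the densest differences by which a read can be told to either gene. It covers coding bases 598 to 657 (codons 200 to 219, exons 4 and 5) of the plus strand, from transcripts Cyp2a4-201 (chr7:26309032-26310708) and Cyp2a5-201 (chr7:26837195-26838870) of GRCm38, and capitals mark the 4 differing bases.
Cyp2a4: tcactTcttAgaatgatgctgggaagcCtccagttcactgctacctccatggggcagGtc
Cyp2a5: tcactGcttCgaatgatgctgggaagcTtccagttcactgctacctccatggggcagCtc

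The Cyp2c subfamily, whose enzymes epoxidise arachidonic acid and metabolise many drugs, had 15 members on chromosome 19. Of these, 14 were tested and none passed the test, and 11 of the 14 had a negative log2 fold change, with a median of -0.31 (-0.09 when scaled to reads on genes, beside 0.20 for all genes). Cyp2c29, the most abundant, reached 247, 259, 534 and 654 FPKM across METTL3-HKD livers 1 to 4, against 668, 441, 539 and 392 FPKM across METTL3-Flox livers 1 to 4. METTL3-HKD livers 1 and 2 were the lowest of all 8 livers and METTL3-HKD livers 3 and 4 lay within the METTL3-Flox range (log2 fold change -0.37, 95% confidence interval -1.13 to 0.39, adjusted p = 0.488 in limma). METTL3-HKD livers 1 and 2 were also lowest in the summed Cyp2c level, at 768, 900, 1334 and 1462 FPKM across METTL3-HKD livers 1 to 4, against 1428, 1152, 1458 and 1512 FPKM across METTL3-Flox livers 1 to 4. Cyp2c65 was named after its values were seen, because its groups did not overlap. It gave 6, 24, 2 and 7 reads in METTL3-HKD livers and 0, 0, 1 and 0 reads in METTL3-Flox livers, and its adjusted p was 0.0653 in limma, or 0.0325 without METTL3-HKD liver 3.

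In the Cyp2d subfamily, whose best-known substrates are amine-containing drugs and steroids, 6 of 8 members were tested and 1 was downregulated. The subfamily summed to 932, 1007, 1142 and 1256 FPKM across METTL3-HKD livers 1 to 4, against 1272 to 1389 FPKM across METTL3-Flox livers, without overlap as deposited. As for the family 2 sum, this separation depends on the scaling between libraries. Cyp2d9, which encodes a testosterone hydroxylase typical of male mouse liver, reached 194, 201, 293 and 310 FPKM across METTL3-HKD livers 1 to 4, against 409, 489, 363 and 346 FPKM across METTL3-Flox livers 1 to 4. The groups did not overlap, although METTL3-HKD livers 3 and 4 came close to METTL3-Flox livers 3 and 4. The level was 1.63-fold lower (log2 fold change -0.71, SE 0.19, adjusted p = 0.039 in limma). The call was lost without METTL3-HKD liver 1 or 2 and without each of the METTL3-Flox livers (adjusted p = 0.0595 to 0.0983), with no minimum level (0.0713), when scaled to reads on genes (0.0528), and with array quality weights (0.0536). Of Cyp2d9 31-base words, 34.8% occur in other genes. Cyp2d40, also named after its values were seen, lay at 19.6 to 60.4 FPKM across METTL3-HKD livers, against 68.2 to 103 FPKM across METTL3-Flox livers without overlap, with an adjusted p of 0.0601 in limma, or 0.04 without METTL3-HKD liver 3 and 0.0365 without METTL3-HKD liver 4. Cyp2d26, which had the highest mean of the subfamily over all 8 livers but not within METTL3-Flox livers, had a mean of 448 ± 21.2 FPKM in METTL3-HKD mice, against 396 ± 25.5 FPKM in METTL3-Flox mice (SD, n = 4, log2 fold change 0.18, adjusted p = 0.27 in limma).

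Cyp2r1, the main vitamin D 25-hydroxylase of liver, was downregulated. It reached 4.11, 3.35, 4.82 and 6.74 FPKM across METTL3-HKD livers 1 to 4, against 8.35, 8.90, 10.3 and 9.81 FPKM across METTL3-Flox livers 1 to 4. Every METTL3-HKD liver was below every METTL3-Flox liver. The log2 fold change was -1.001 (SE 0.19, adjusted p = 0.0131 in limma), and the call held under all 17 alternatives, -0.79 being the value when scaled to reads on genes. None of the 31-base words of Cyp2r1 occurs in another gene. The other vitamin D members were too low to test, with at most 8 reads of Cyp27b1, the activating hydroxylase of kidney, and at most 1 read of Cyp24a1, the catabolic enzyme, in any liver. Among further members of family 2, Cyp2f2 and Cyp2j5 did not pass the test. Cyp2f2, a periportal P450 also known from lung, had a mean of 182 ± 40.2 FPKM in METTL3-HKD mice, against 267 ± 39.3 FPKM in METTL3-Flox mice (SD, n = 4, adjusted p = 0.0704 in limma). Cyp2j5 had 135 ± 29.7 FPKM and 191 ± 23.7 FPKM (SD, n = 4, adjusted p = 0.0742 in limma). Both had 1 or more METTL3-HKD livers inside the METTL3-Flox range. Cyp2f2 passed without METTL3-Flox liver 1 (adjusted p = 0.0454) and Cyp2j5 without METTL3-HKD liver 3 (0.0474).

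Family 3 had 9 members, of which 6 were tested and 1 was upregulated, beside 9.05% of all genes. Cyp3a44, which is typical of female mouse liver, reached 0.583, 1.49, 0.564 and 0.576 FPKM across METTL3-HKD livers 1 to 4, against 0.0359, 0.0315, 0.268 and 0.127 FPKM across METTL3-Flox livers 1 to 4. The groups did not overlap, and METTL3-HKD liver 2 was far above the rest of its group. These levels rest on 20 to 54 reads in METTL3-HKD livers and 1 to 8 reads in METTL3-Flox livers. The log2 fold change was 2.09 (SE 0.42, adjusted p = 0.0153 in limma), and the call held under all 16 alternatives that tested the gene. Of its 31-base words, 48.4% occur in other genes, most often in Cyp3a41a (24.4%), which was listed at 0 in all 8 livers. The coding sequence of Cyp3a44 is also 94.9% identical to that of the far more abundant Cyp3a11, with 77 mismatches. How reads that fit both genes were assigned is not given in the sources used here, so the few Cyp3a44 reads are uncertain in origin. Cyp3a11, the main drug-metabolising P450 of this family and a target of the receptor PXR, reached 267, 299, 527 and 603 FPKM across METTL3-HKD livers 1 to 4, against 495, 403, 302 and 230 FPKM across METTL3-Flox livers 1 to 4. Each group spread over more than the distance between the means, and the test was not passed (log2 fold change 0.22, 95% confidence interval -0.51 to 0.95, adjusted p = 0.68 in limma).

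Family 1 comprises the targets of the aryl hydrocarbon receptor, and none of its 3 members passed the test. Cyp1a2, the abundant hepatic form, reached 60.8, 73.9, 211 and 199 FPKM across METTL3-HKD livers 1 to 4, against 78.7, 109, 77.9 and 72.4 FPKM across METTL3-Flox livers 1 to 4. METTL3-HKD livers 3 and 4 were well above all others and METTL3-HKD liver 1 was the lowest (log2 fold change 0.49, 95% confidence interval -0.42 to 1.40, adjusted p = 0.441 in limma). Cyp1a1 stayed at 0.0596 to 0.291 FPKM across METTL3-HKD livers, against 0.0669 to 0.378 FPKM across METTL3-Flox livers, with at most 16 reads in any liver. Cyp1b1, a form of non-hepatocyte cells, lay at 0.248 to 0.999 FPKM across METTL3-HKD livers, against 0.194 to 0.362 FPKM across METTL3-Flox livers.

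**Figure D3:**
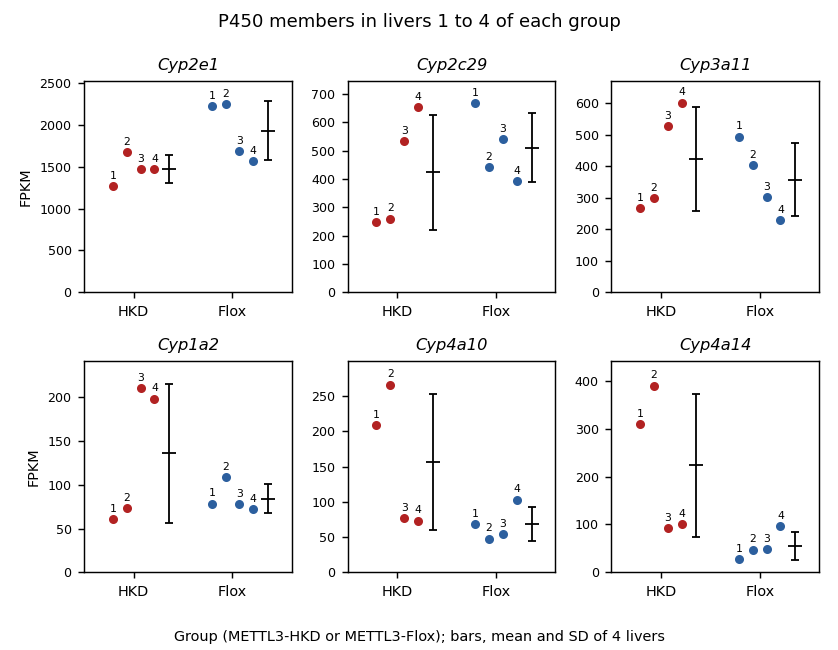
FPKM of 6 abundant P450 members in each liver, with livers numbered 1 to 4 within METTL3-HKD (red) and METTL3-Flox (blue), and black bars for the mean and SD of 4 livers. In METTL3-HKD livers 1 and 2, Cyp2c29 (247 and 259 FPKM), Cyp3a11 and Cyp1a2 were lower than in METTL3-HKD livers 3 and 4, whereas Cyp4a10 and Cyp4a14 (309 and 390 FPKM) were higher.

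In family 4, 15 of 20 members were tested, 2 were upregulated and 2 were downregulated, with a median log2 fold change of 0.23. Of all genes tested, 9.05% were upregulated and 6.63% were downregulated. Within the Cyp4a subfamily of fatty acid hydroxylases, 1 member was higher and 1 was lower. Cyp4a14, a target of the receptor PPARα, reached 309, 390, 92.5 and 101 FPKM across METTL3-HKD livers 1 to 4, against 28.3, 47.7, 49.3 and 96.5 FPKM across METTL3-Flox livers 1 to 4. METTL3-HKD livers 1 and 2 were far above the rest, and METTL3-HKD liver 3 fell below METTL3-Flox liver 4. The log2 fold change was 1.86 (SE 0.53, adjusted p = 0.0461 in limma). The call was lost without METTL3-HKD liver 1 or 2 and without METTL3-Flox liver 1, 2 or 3 (adjusted p = 0.0948 to 0.119), with a pseudocount of 1 FPKM (0.0513), with no minimum level (0.0785) and with array quality weights (0.0702). Cyp4a10, from the same cluster and also a PPARα target, showed the same liver pattern at 208, 266, 76.7 and 73.2 FPKM across METTL3-HKD livers, against 68.8, 47.9, 54.3 and 103 FPKM across METTL3-Flox livers, and did not pass the test (log2 fold change 1.02, adjusted p = 0.153 in limma). Ppara itself was at 26.4 ± 4.89 FPKM in METTL3-HKD mice, against 27.5 ± 10.6 FPKM in METTL3-Flox mice (SD, n = 4).

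Cyp4a12a, an arachidonic acid hydroxylase typical of male mice, was downregulated. It reached 50.8, 41.1, 68.9 and 75.7 FPKM across METTL3-HKD livers 1 to 4, against 78.7, 99.8, 99.2 and 96.7 FPKM across METTL3-Flox livers 1 to 4. The groups did not overlap, but METTL3-HKD liver 4 and METTL3-Flox liver 1 lay close together. The level was 1.62-fold lower (log2 fold change -0.70, SE 0.19, adjusted p = 0.0406 in limma). The call was lost without METTL3-HKD liver 1 or 2 and without METTL3-Flox liver 2, 3 or 4 (adjusted p = 0.0754 to 0.105), with no minimum level (0.0661), when scaled to reads on genes (0.092) and with voom (0.0856). Its near copy Cyp4a12b lay at 17.1, 13.7, 25.2 and 25.5 FPKM across METTL3-HKD livers, against 23.2, 26.5, 26.7 and 26.1 FPKM across METTL3-Flox livers, with overlap (log2 fold change -0.38, adjusted p = 0.217 in limma). Cyp4a12a and Cyp4a12b differ at 23 of 1527 coding bases, and 62.2% of the 31-base words of Cyp4a12a occur in other genes, so the split of reads between the pair is uncertain. The stretch printed next, shown for the same reason as above, covers coding bases 625 to 684 (codons 209 to 228, exons 5 and 6) on the plus strand of transcripts Cyp4a12a-201 (chr4:115326310-115326682) and Cyp4a12b-201 (chr4:115432562-115432935) of GRCm38, with the 4 differing bases in capitals.
Cyp4a12a: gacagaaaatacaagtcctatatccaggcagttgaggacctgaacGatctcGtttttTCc
Cyp4a12b: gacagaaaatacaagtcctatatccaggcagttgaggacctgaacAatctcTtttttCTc

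In the Cyp4f subfamily, which inactivates leukotrienes and other eicosanoids, 7 of 9 members were tested, 1 was upregulated and 1 was downregulated. Cyp4f18, known as the leukotriene hydroxylase of mouse neutrophils, reached 13.9, 3.30, 1.49 and 3.89 FPKM across METTL3-HKD livers 1 to 4, against 0.872, 0.367, 0.177 and 0.368 FPKM across METTL3-Flox livers 1 to 4. All METTL3-HKD livers were above all METTL3-Flox livers, and METTL3-HKD liver 1 was far above the others. The log2 fold change was 3.08 (SE 0.62, adjusted p = 0.0151 in limma) and the call held under all 17 alternatives. The 8 neutrophil markers moved with it, since their summed level was 1631, 383, 334 and 553 FPKM across METTL3-HKD livers 1 to 4, against 13.0 to 45.0 FPKM across METTL3-Flox livers. Their median log2 fold change was 3.95, and Ly6g was at 0 in METTL3-Flox livers 2 to 4. The part of neutrophil RNA in the Cyp4f18 difference was not tested. Exons of Zfp961 on the opposite strand overlap 9.76% of the Cyp4f18 length, Zfp961 reached at most 2.35 FPKM, and the strand setting of the counting is not given in the sources used here.

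Cyp4f13 showed a small decrease. It reached 9.60, 10.7, 12.0 and 11.8 FPKM across METTL3-HKD livers 1 to 4, against 14.6, 14.0, 14.6 and 14.9 FPKM across METTL3-Flox livers 1 to 4. The groups did not overlap and METTL3-Flox values were tightly spaced (log2 fold change -0.40, SE 0.09, adjusted p = 0.023 in limma). The call was lost without METTL3-HKD liver 1 or 2 and without METTL3-Flox liver 3 or 4 (adjusted p = 0.0524 to 0.0629), when scaled to reads on genes (0.221) and with voom (0.268). The most abundant member of the subfamily, Cyp4f14, had a mean of 26.4 ± 13.1 FPKM in METTL3-HKD mice, against 37.9 ± 6.92 FPKM in METTL3-Flox mice (SD, n = 4, adjusted p = 0.221 in limma).

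**Figure D4:**
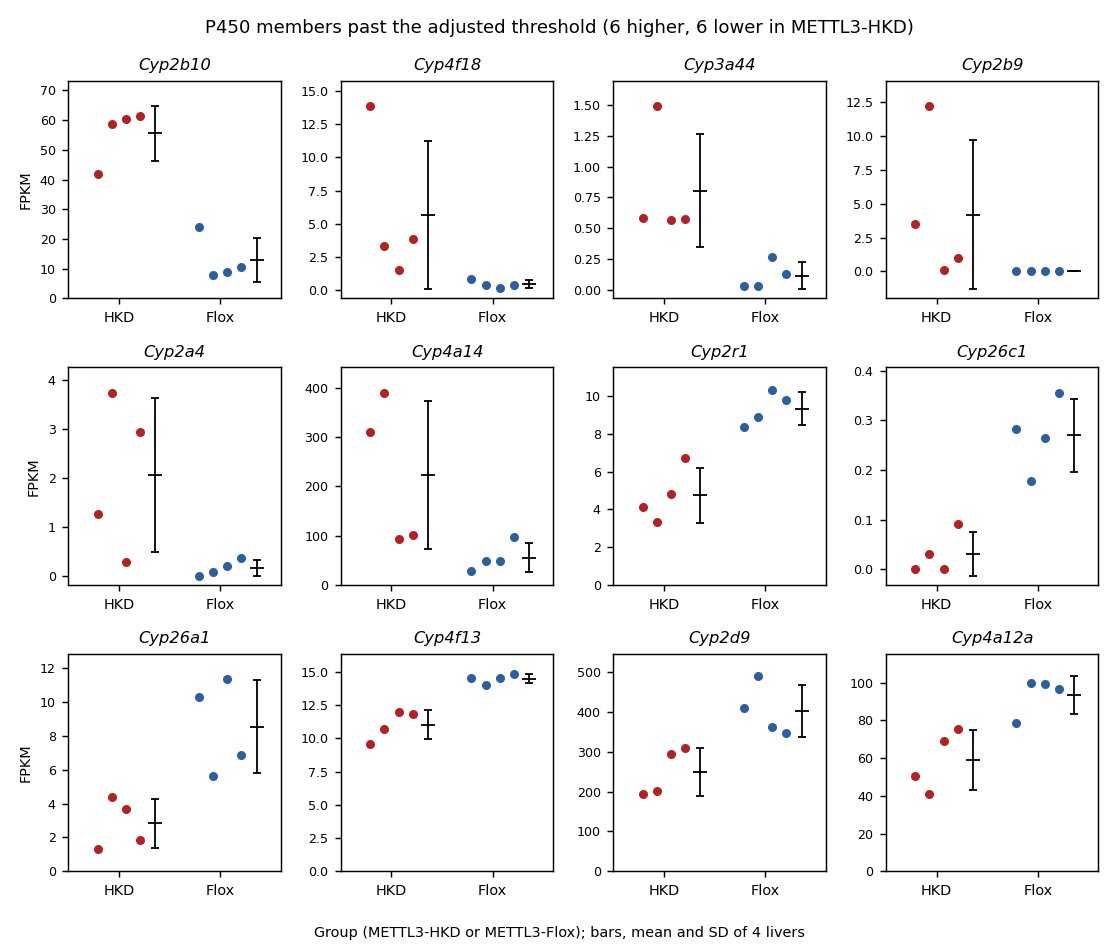
FPKM of the 12 called P450 members in each liver (METTL3-HKD red, METTL3-Flox blue), with black bars for the mean and SD of 4 livers per group and a separate linear FPKM axis for each gene. Both groups are fully separated in 10 panels, and Cyp2a4 and Cyp4a14 overlap.

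Family 26, the retinoic acid hydroxylases, had 3 members, all were tested, all had a negative log2 fold change, and 2 were downregulated, beside 6.63% of all genes. Cyp26a1, the principal retinoic acid hydroxylase of liver, reached 1.35, 4.39, 3.68 and 1.88 FPKM across METTL3-HKD livers 1 to 4, against 10.3, 5.62, 11.4 and 6.87 FPKM across METTL3-Flox livers 1 to 4. Every METTL3-HKD liver was below every METTL3-Flox liver. The level was 3.14-fold lower (log2 fold change -1.65, SE 0.38, adjusted p = 0.0227 in limma), and the call was lost only without METTL3-HKD liver 4 (adjusted p = 0.0534) and without METTL3-Flox liver 3 (0.0666). Cyp26c1, its neighbour on chromosome 19, gave 0, 1, 0 and 3 reads in METTL3-HKD livers and 7, 5, 7 and 10 reads in METTL3-Flox livers, without overlap. It passed the test (log2 fold change -1.53, SE 0.34, adjusted p = 0.02 in limma), but the size depends on the pseudocount at so few reads, and the call was lost without METTL3-HKD liver 1 and without METTL3-Flox liver 3 or 4 (adjusted p = 0.0519 to 0.0598). Cyp26b1 reached 0.641, 0.950, 3.64 and 1.40 FPKM across METTL3-HKD livers, against 3.79, 1.48, 4.10 and 4.57 FPKM across METTL3-Flox livers. METTL3-Flox liver 2 fell among the METTL3-HKD values and the test was not passed (log2 fold change -1.20, adjusted p = 0.145 in limma), although it was without METTL3-HKD liver 3 (0.0284).

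Cyp26a1 and Cyp26c1 lie within chr19:37685581-37701528, both on the plus strand, and none of the 31-base words of the 3 family members occurs in another gene. The 150 bases upstream of the Cyp26a1 start (chr19:37697658-37697807, plus strand, RefSeq on GRCm38.p6) are printed because Cyp26a1 is the textbook target of retinoic acid receptors, which bind a direct repeat with 5 bases between its parts. The motif searched was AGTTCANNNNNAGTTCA on both strands, over the 250 bases before each start, and capitals mark its letters, which lie here on the opposite strand 32 to 16 bases before the start. Of 3 other motifs searched in the same windows on both strands, the single site AGGTCA, which overlaps the repeat AGGTCANAGGTCA, occurred in 14.0% of all windows and in 11 of 58 windows of tested members. The repeat AGGTCANAGGTCA occurred in 0.0335% of all windows and in 0 of 58, and TTCNNNGAA, the form read by STAT factors, in 7.02% of all windows and in 2 of 58.
Cyp26a1: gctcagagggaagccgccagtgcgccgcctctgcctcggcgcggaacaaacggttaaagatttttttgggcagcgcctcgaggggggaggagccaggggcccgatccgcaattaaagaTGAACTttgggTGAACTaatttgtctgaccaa
The letters occur in 7 of 32851 promoter windows (0.0213%) and in 1 of 58 windows of tested P450 members. Only this exact form of the repeat was searched at that spacing, and no looser form. The share is therefore that of these letters and is no measure of how particular such sites are to Cyp26a1. The match describes the sequence, and no binding was measured. Stellate cells store retinoids, and the 8 stellate cell markers summed to 42.1 to 61.6 FPKM across METTL3-HKD livers, against 42.9 to 70.3 FPKM across METTL3-Flox livers. Of these markers 1 was higher and 2 were lower, beside 9.05% and 6.63% of all genes, or 1 and 1 when scaled to reads on genes. The part of stellate cells in the family 26 values was not tested.

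The families of steroid and sterol metabolism held no member past the test. Cyp17a1, a steroid hydroxylase, reached 12.4, 11.8, 15.4 and 13.2 FPKM across METTL3-HKD livers 1 to 4, against 27.5, 9.49, 4.46 and 3.90 FPKM across METTL3-Flox livers 1 to 4. METTL3-HKD values were tightly spaced whereas METTL3-Flox values spread on both sides of them (log2 fold change 0.67, adjusted p = 0.425 in limma). Without METTL3-Flox liver 1, the highest, Cyp17a1 passed the test (log2 fold change 1.24, adjusted p = 0.0293 in limma). Of the adrenal and gonadal markers, Nr5a1, Hsd3b1 and Mc2r were listed at 0. Star, which encodes the cholesterol carrier of steroid-producing cells, was at 1.39, 1.67, 0.781 and 1.07 FPKM across METTL3-HKD livers, against 0.188 to 0.451 FPKM across METTL3-Flox livers, and was upregulated (log2 fold change 1.65, SE 0.28, adjusted p = 0.00844 in limma) under all 16 alternatives that tested it. The part of such cells in the Cyp17a1 values was not tested. Cyp11a1, Cyp11b1, Cyp11b2 and Cyp19a1 had at most 2 reads in any liver and were not tested. Cyp39a1, an oxysterol hydroxylase, had 7.45 ± 1.97 FPKM in METTL3-HKD mice, against 8.20 ± 1.05 FPKM in METTL3-Flox mice (SD, n = 4, adjusted p = 0.588 in limma). Cyp20a1, Cyp21a1 and Cyp46a1 also did not pass the test, with adjusted p from 0.308 to 0.688 in limma.

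P450 genes known to differ between the sexes in mouse liver were described as a list. Of 8 female-typical members, 5 were tested and 3 were upregulated, namely Cyp2b9, Cyp2a4 and Cyp3a44, beside 9.05% of all genes. Cyp2c69 and Cyp3a16 did not pass the test, and Cyp2b13, Cyp3a41a and Cyp3a41b were too low to test. Of 3 male-typical members, all were tested and 2 were downregulated, namely Cyp2d9 and Cyp4a12a, beside 6.63% of all genes, and neither call was kept after scaling to reads on genes. The summed female-typical level was 6.30, 19.0, 2.88 and 8.14 FPKM across METTL3-HKD livers 1 to 4, against 1.19, 0.908, 3.58 and 14.8 FPKM across METTL3-Flox livers 1 to 4, so the sums overlapped. In METTL3-Flox liver 4 this sum was mostly Cyp2c69 (14.4 FPKM). The summed male-typical level was 262, 256, 387 and 411 FPKM across METTL3-HKD livers, against 511, 616, 488 and 469 FPKM across METTL3-Flox livers, without overlap.

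The 8 receptor-inducible P450 members, all tested, moved in both directions. Cyp2b10 (CAR) and Cyp4a14 (PPARα) were upregulated and Cyp26a1 (retinoic acid receptors) was downregulated. Cyp1a1, Cyp1a2 and Cyp1b1 (aryl hydrocarbon receptor), Cyp3a11 (PXR) and Cyp4a10 (PPARα) did not pass the test. By position, the chromosome 7 cluster of Cyp2a, Cyp2b and neighbouring genes held 9 tested members with 3 upregulated and none downregulated, and the chromosome 19 Cyp2c cluster held 13 tested members with none past the test, beside 9.05% upregulated and 6.63% downregulated of all genes. The difference between the clusters was not tested.

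The enzymes that serve P450 proteins were compared from a list of 7 electron partners, all of which were tested. Of these, 1 was upregulated and 2 were downregulated, beside 9.05% and 6.63% of all genes. Por, which encodes the reductase that feeds microsomal P450 enzymes, reached 78.5, 80.6, 89.8 and 78.2 FPKM across METTL3-HKD livers 1 to 4, against 36.6, 72.2, 35.5 and 55.6 FPKM across METTL3-Flox livers 1 to 4. The groups did not overlap (log2 fold change 0.77, SE 0.22, adjusted p = 0.0434 in limma), but the call was lost when any of the METTL3-HKD livers was left out and without METTL3-Flox liver 1, 3 or 4 (adjusted p = 0.0647 to 0.105), and with no minimum level (0.071). Fdxr, which encodes the reductase of mitochondrial P450 enzymes, fell to 2.50, 2.83, 2.82 and 3.57 FPKM in METTL3-HKD livers from 5.02, 4.63, 4.99 and 4.72 FPKM in METTL3-Flox livers. The groups were well apart and the call held under all 17 alternatives (log2 fold change -0.72, SE 0.12, adjusted p = 0.00835 in limma). Cyb5b, a cytochrome b5 of the mitochondrial outer membrane, was lower (log2 fold change -0.56, adjusted p = 0.0436 in limma), a call lost without METTL3-HKD liver 1 or 2, without each METTL3-Flox liver (adjusted p = 0.0564 to 0.112), with no minimum level (0.0683), with voom (0.118) and when scaled to reads on genes (0.116).

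Heme is the prosthetic group of every P450. Of 11 genes of heme synthesis and breakdown, all were tested, 1 was upregulated and 4 were downregulated, beside 9.05% and 6.63% of all genes. When scaled to reads on genes, 2 were higher and 0 were lower, beside 13.8% and 2.24% of all genes. Hmox1, the inducible heme oxygenase that degrades heme, reached 79.6, 48.8, 48.9 and 52.5 FPKM across METTL3-HKD livers 1 to 4, against 28.4, 17.6, 21.9 and 17.0 FPKM across METTL3-Flox livers 1 to 4. All METTL3-HKD livers were above all METTL3-Flox livers, with a 2.7-fold difference (log2 fold change 1.43, SE 0.21, adjusted p = 0.00529 in limma) that held under all 17 alternatives. Alad, Urod, Ppox and Fech, which encode enzymes of heme synthesis, had log2 fold changes of -0.51, -0.41, -0.47 and -0.38. None of these calls was kept after scaling to reads on genes (adjusted p = 0.0533 to 0.405 in limma). Over all 17 alternatives, the calls of Alad, Urod, Ppox and Fech were lost in 2, 12, 12 and 9 (adjusted p up to 0.0756, 0.24, 0.204 and 0.428 in limma). The Alad call was kept without any 1 liver. The others were lost without METTL3-HKD liver 1 or METTL3-Flox liver 3 (adjusted p = 0.0792 to 0.102), Urod and Ppox also without METTL3-HKD liver 2 or 3 or METTL3-Flox liver 1, 2 or 4 (0.0579 to 0.106), and Fech also without METTL3-HKD liver 2 or 4 or METTL3-Flox liver 2 or 4 (0.0661 to 0.0861). Alas1, the rate-limiting enzyme, reached 43.1, 29.8, 49.0 and 59.3 FPKM across METTL3-HKD livers, against 62.7, 84.9, 31.5 and 39.8 FPKM across METTL3-Flox livers, with overlap and no call (adjusted p = 0.69 in limma). Cpox, also of heme synthesis, went the other way, at 31.8 to 33.9 FPKM across METTL3-HKD livers, against 20.8 to 30.3 FPKM across METTL3-Flox livers, without overlap. Its log2 fold change was 0.34 (adjusted p = 0.0942 in limma, or 0.0174 when scaled to reads on genes).

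**Figure D5:**
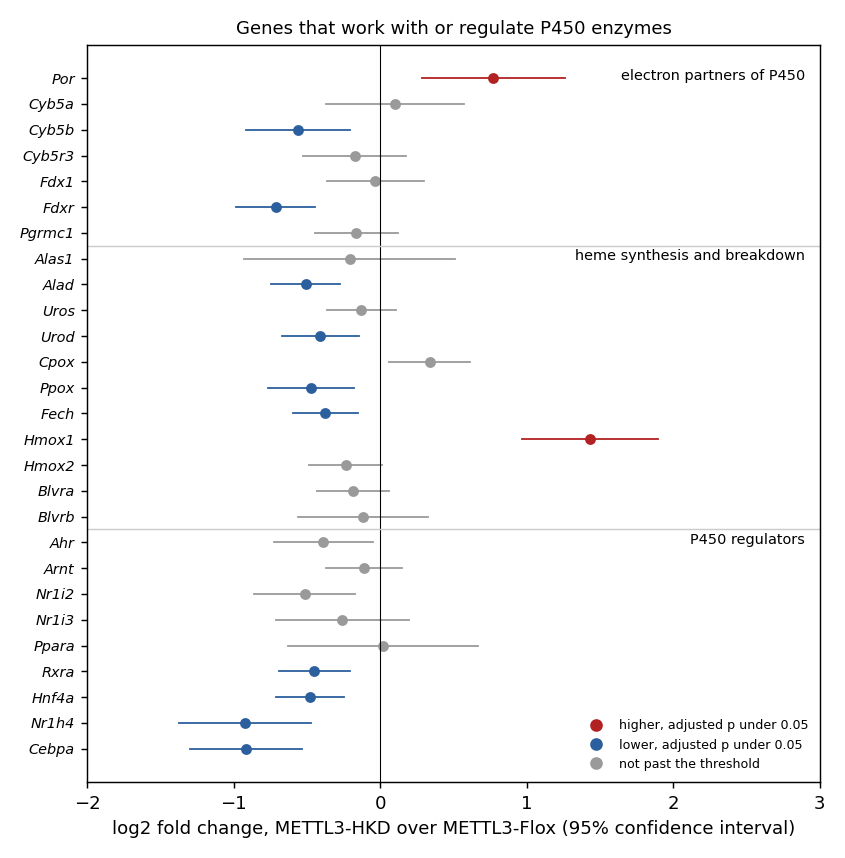
Log2 fold changes (METTL3-HKD over METTL3-Flox, points) with 95% confidence intervals (lines) of tested electron partners, heme genes and P450 regulators, red for upregulated, blue for downregulated and grey for genes not past the test. Hmox1 (1.43) and Por (0.77) lie to the right of 0 in red, and Nr1h4 (-0.92) and Cebpa (-0.91) are the lowest points.

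Of 10 transcription factors that regulate P450 genes, 9 were tested, none was upregulated and 4 were downregulated, beside 9.05% and 6.63% of all genes. Cebpa, a hepatocyte factor that drives many P450 promoters, fell to 67.7, 112, 117 and 94.6 FPKM in METTL3-HKD livers from 169, 189, 169 and 196 FPKM in METTL3-Flox livers. The groups did not overlap and the call held under all 17 alternatives (log2 fold change -0.91, SE 0.17, adjusted p = 0.0115 in limma). Nr1h4, which encodes the bile acid receptor FXR, was at 21.3, 26.9, 41.2 and 38.5 FPKM across METTL3-HKD livers, against 51.8, 61.5, 59.7 and 62.1 FPKM across METTL3-Flox livers (log2 fold change -0.92, SE 0.20, adjusted p = 0.019 in limma). The Nr1h4 call was lost without METTL3-HKD liver 2 and without METTL3-Flox liver 3 or 4 (adjusted p = 0.0503 to 0.0556). Hnf4a (log2 fold change -0.48, adjusted p = 0.0187 in limma) and Rxra (-0.45, adjusted p = 0.0263 in limma), which encode a hepatocyte nuclear receptor and the common partner of CAR, PXR, FXR and PPARα, were lower as deposited, and neither was past the test when scaled to reads on genes (0.191 and 0.159). The Hnf4a call was lost without METTL3-HKD liver 2 or METTL3-Flox liver 3 or 4 (0.0503 to 0.0592), and the Rxra call without METTL3-HKD liver 1 or 2 or METTL3-Flox liver 2, 3 or 4 (0.0543 to 0.0679). Over all 17 alternatives, Hnf4a lost its call in 6 and Rxra in 8 (adjusted p up to 0.199 and 0.182 in limma). Ahr, Arnt, Nr1i3 and Ppara did not pass the test, nor did Nr1i2, which encodes PXR (-0.52, adjusted p = 0.0509 in limma, or 0.0326 without METTL3-HKD liver 3), and both epoxide hydrolases, Ephx1 and Ephx2, which act on P450 products, did not either.

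Markers of hepatocyte zones and of other liver cells were set beside these values. None of the 8 pericentral markers and none of the 8 periportal markers passed the test, with median log2 fold changes of -0.32 and -0.28, at a background of 15.7% of all genes called. When scaled to reads on genes these medians were -0.11 and -0.06. The periportal markers summed to 1684, 1331, 2461 and 2619 FPKM across METTL3-HKD livers 1 to 4, against 2304 to 2583 FPKM across METTL3-Flox livers. As deposited, METTL3-HKD livers 1 and 2 were thus lowest, as they were for the hepatocyte markers, for Cyp2c29 and for the Cyp2c sum. For the hepatocyte markers this order depends on the scaling between libraries. The macrophage and Kupffer cell markers summed to 83.2 to 175 FPKM across METTL3-HKD livers, against 164 to 380 FPKM across METTL3-Flox livers, and 4 of 8 were lower. Of the sinusoidal endothelial markers 2 of 8 were lower, and neither these calls nor those of the macrophage list were kept when scaled to reads on genes. The cholangiocyte markers summed to 119 to 369 FPKM across METTL3-HKD livers, against 52.5 to 77.6 FPKM across METTL3-Flox livers, and 4 of 5 tested were higher. Beside these lists, 9.05% of all genes tested were higher and 6.63% were lower. The part of cell composition in the P450 differences was not tested.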

How the data were processed

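RNA from 8 livers (4 METTL3-HKD and 4 METTL3-Flox mice) had been sequenced after a SMARTER mRNA-Seq preparation. The authors deposited FPKM values per gene on GRCm38/mm10, per the labels and processing notes; the aligner, counter and strand setting are not given in the sources used here. FPKM multiplied by gene length gave whole reads in all non-zero values (tolerance 0.05 reads), so reads per library were recovered, and the deposited FPKM had been scaled between libraries. Genes reaching 0.1 FPKM on average were tested on log2(FPKM + 0.1) with limma 3.58.1 (trend, R 4.3.3), with Benjamini-Hochberg adjustment over 16645 genes. Single values were compared by exact permutation in Python 3.11.15 with scipy 1.17.1. Intervals for reads of 0 take 3 reads as the limit and cover counting error only. Named members were, per family or subfamily, up to 4 per direction with the smallest adjusted p past 0.05, the most abundant member, those on the sex-typical and receptor-inducible lists, and each tested member of small families; listed partners, regulators and markers past the test could also be named. Ahr, Alas1, Arnt, Cpox, Ephx1, Ephx2, Nr1i2, Nr1i3 and Ppara did not pass and were named after their values were seen, as was Cyp2d10. 1 listed gene is not reported here. The P450 members and all lists were chosen with earlier results of these data known. Replicate numbers named livers and did not pair them. The labels give each liver as a separate sample and say no more of its origin, so p-values measure only the spread between these samples. No pair of libraries of the same group agreed within sampling noise. By chi-square per gene, METTL3-HKD livers 1 and 2 (27.6) and METTL3-HKD livers 3 and 4 (27.3) were closest to each other. The other METTL3-HKD pairs gave 63.6 to 92.1, and METTL3-Flox pairs gave 24.1 to 81.3. Leaving out 1 liver does not remove such a pair. Alternatives changed the pseudocount, minimum level, scaling, weights, gene set or model, added a replicate block, or left out 1 liver.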

Additional observations from a re-analysis of the deposited data

Results flagged for a closer look

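Within groups of 4 livers, 125 sets of values were examined for 1 liver standing apart by Dixon's test at the 95% critical value, and 12 passed. Chance gives about 1 in 20.

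Among called members, METTL3-HKD liver 1 was lowest for Cyp2b10 (41.8 FPKM, the others 58.6 to 61.4) and METTL3-Flox liver 1 was highest for it (24.0 FPKM, the others 7.94 to 10.6). METTL3-HKD liver 2 was highest for Cyp3a44 (1.49 FPKM, the others 0.564 to 0.583). METTL3-Flox liver 1 was lowest for Cyp4a12a (78.7 FPKM, the others 96.7 to 99.8).

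Among members not past the test, METTL3-Flox liver 1 was lowest for Cyp4a12b (23.2 FPKM, the others 26.1 to 26.7) and for Cyp2f2 (209 FPKM, the others 280.3 to 293). METTL3-HKD liver 3 was lowest for Cyp1a1 (0.0596 FPKM, the others 0.285 to 0.291). METTL3-Flox liver 3 was highest for Cyp2c65 (0.0341 FPKM, the others at 0), METTL3-Flox liver 2 for Cyp2g1 (0.779 FPKM, the others 0.0328 to 0.145) and METTL3-Flox liver 4 for Cyp21a1 (0.493 FPKM, the others 0.197 to 0.231). The Cyp2c65 value is 1 read, and with the others at 0 any read would have been flagged.

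Of genes that are no P450 members, METTL3-HKD liver 1 was highest for Hmox1 (79.6 FPKM, the others 48.8 to 52.5) and METTL3-HKD liver 3 for Arnt (4.49 FPKM, the others 3.89 to 3.90).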

How the results depend on the processing

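With all livers, the 6 upregulated P450 members became 3 with a pseudocount of 1 FPKM and 3 with no minimum level, and the 6 downregulated became 3 when scaled to reads on genes. Leaving out 1 liver gave 3 to 9 upregulated and 1 to 10 downregulated. The median log2 fold change of -0.12 became 0.084 when scaled to reads on genes and 0.0757 with voom, and lay from -0.18 to -0.04 without 1 liver. With the replicate number as a block, 6 members were higher and 6 lower, and 8 of the 12 calls were kept, those lost being Cyp2d9 (adjusted p = 0.107 in limma), Cyp4a14 (0.0969), Cyp4f13 (0.0575) and Cyp4a12a (0.0554), with Por (0.0716) and Cyb5b (0.0746) among the partners; the numbers are not a pairing, since same-number livers correlated at -0.16 to 0.14 in their deviations and not every liver correlated best with its own number. Over the 67 tested members, the sign turned in 7 when scaled to reads on genes and in 11 without some liver, none of them past the test. Of the 63 genes recomputed under every alternative, signs turned with all livers for Cyp1a1 (0.084 scaled to reads, 0.014 with quality weights, 0.0757 with voom), Cyp2u1 (0.0043 with voom), Cyp20a1 (0.14 and 0.14), Cyp39a1 (0.0464 and 0.0434), Alas1 (0.0061 and 0.0066), Arnt (0.0987 and 0.103), Ephx1 (0.0298 and 0.0304), Mettl3 (0.0474 and 0.0471; scaled to reads and voom in each) and Ppara (-0.0621 with quality weights). Among the same 63, they turned without 1 liver for Cyp1a1 (-0.40 to 0.25), Cyp2c69 (-1.05 to 0.46), Cyp2g1 (-0.70 to 0.21), Cyp3a16 (-0.16 to 0.58), Cyp39a1 (-0.31 to 0.00798), Alas1 (-0.44 to 0.0366) and Ppara (-0.26 to 0.22). The causes were not tested. Voom with the deposited scaling was added after seeing the data. Members at a few reads, such as Cyp26c1 and Cyp3a44, are limited by depth.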
